A study of Mus musculus with 12 samples.

Results

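The genes described here carry out and control mitosis. They are 47 genes named one by one for their roles in mitotic entry, the spindle checkpoint, the centromere and kinetochore, spindle motors and microtubule proteins, the central spindle and cytokinesis, chromosome structure, and mitotic exit. All 47 are among the 34844 gene names of the array, 46 of them passed the filter on dim probes, and 26518 genes passed in all. Cenpf, a large protein of the outer kinetochore, was the member left out of the tests. Its single probe was well above background on 4 of 12 arrays, with log2 levels between -8.13 and -3.94. Of the members, 14 have more than 1 probe and are represented by the one of highest mean signal.

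Each of the 4 groups had 3 arrays, and 12 single-colour Agilent arrays were measured in all. The groups were survivin-deleted hepatocellular carcinoma (HCC, genotype Mxcre+), wild-type HCC (Mxcre-), survivin-deleted non-cancerous liver (Mxcre+) and wild-type non-cancerous liver (Mxcre-). By the labels every group shared male sex, the 129/SV/B6 background, the carcinogen diethylnitrosamine (DEN) at 50 mg/kg given at 2 weeks of age, and poly(IC) injected 8 months after it. Tissue was taken 1 week after poly(IC), which was 2 months after irradiation with bone marrow transplantation, also in all groups. The Mx promoter, switched on by interferon, is active in liver and blood cells, and the labels give neither the genotype nor the sex of the donor marrow, nor which stretch of Birc5, the gene of survivin, is removed. They do not say that a group's arrays are of separate animals, or that tumour and liver of the same number came from the same animal, so p-values measure only the spread between these samples.

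Mitosis begins when cyclin A and cyclin B activate the kinase Cdk1, and Aurora and polo-like kinases then build the spindle. Kinetochores, protein assemblies on centromeric chromatin, bind the microtubules, and the spindle checkpoint holds back the anaphase-promoting complex until all are attached. Survivin belongs to the chromosomal passenger complex, which corrects wrong attachments and later acts at the central spindle. Many of these genes are transcribed late in the cell cycle through a short promoter element, the cell cycle genes homology region, often beside CCAAT boxes bound by NF-Y. Adult hepatocytes seldom divide, and in liver the transcripts are known as markers of regenerating and tumour tissue.

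The promoters below are shown because each holds both a CCAAT box and the cell cycle genes homology region. Each is the 250 bases before the start site from RefSeq on GRCm38.p6, read 5′ to 3′ on the gene's strand. Capitals mark CCAAT on either strand and the cell cycle genes homology region, searched on either strand as TTTGAA, or with TTCGAA in its place. The windows are chr10:69352913-69353162 (minus strand) for Cdk1, chr4:118437344-118437593 (minus strand) for Cdc20, chr2:164769679-164769928 (plus strand) for Ube2c and chr5:45669675-45669924 (plus strand) for Ncapg. Cdk1 is the entry kinase, Cdc20 activates the anaphase-promoting complex, Ube2c is the ubiquitin-conjugating enzyme that serves it, and Ncapg is a condensin subunit.
Cdk1: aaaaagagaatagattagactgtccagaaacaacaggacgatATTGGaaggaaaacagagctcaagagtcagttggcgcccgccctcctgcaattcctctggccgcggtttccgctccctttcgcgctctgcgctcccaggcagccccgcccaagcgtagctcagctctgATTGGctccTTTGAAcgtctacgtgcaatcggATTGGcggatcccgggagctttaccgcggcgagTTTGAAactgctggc
Cdc20: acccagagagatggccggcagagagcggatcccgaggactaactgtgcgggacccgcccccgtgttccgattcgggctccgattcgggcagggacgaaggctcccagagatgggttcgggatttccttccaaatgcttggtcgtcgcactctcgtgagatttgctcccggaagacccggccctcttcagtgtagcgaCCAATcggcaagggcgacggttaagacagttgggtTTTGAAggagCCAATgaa
Ube2c: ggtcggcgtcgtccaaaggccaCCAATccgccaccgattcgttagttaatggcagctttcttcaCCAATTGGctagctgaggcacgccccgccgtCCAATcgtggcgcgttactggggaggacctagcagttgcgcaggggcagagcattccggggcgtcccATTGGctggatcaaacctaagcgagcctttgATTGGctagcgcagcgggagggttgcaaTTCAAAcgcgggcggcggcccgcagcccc
Ncapg: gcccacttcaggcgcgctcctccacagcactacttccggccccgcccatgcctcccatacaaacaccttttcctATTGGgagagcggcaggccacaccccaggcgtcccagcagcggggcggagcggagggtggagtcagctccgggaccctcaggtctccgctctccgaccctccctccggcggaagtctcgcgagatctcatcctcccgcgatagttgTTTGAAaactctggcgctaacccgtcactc
The Cdk1 window holds 3 CCAAT boxes and 2 homology regions, that of Cdc20 2 and 1, that of Ube2c 6 and 1, and that of Ncapg 1 and 1. RefSeq windows were matched for 42 of the 47 members and gave 46 windows, since some genes have several start sites. Ccna2, Dlgap5, Kif20a, Pbk and Tpx2 were not matched. Of the member windows 76.1% held a CCAAT box, against 33.8% of all 32851 windows of the same length. The homology region was in 41.3% of member windows, against 17.1% of all, and both elements together were in 37.0%, against 6.0%. At least 2 CCAAT boxes were found in 52.2% of member windows and in 10.1% of all windows. Letters that resemble an E2F site (TTCCCGC, or the letters TTGGCGC, or those of TTGCCGC or of TTCGCGC, on either strand) were in 15.2% of member windows, against 7.9% of all, and the Cdk1 window holds 2 of them outside the capitals. CCAAT boxes on opposite strands can overlap, as 2 do in Ube2c, and each was counted. A match in these windows is a description of letters and not of a bound site.

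Replicate 1 of every group was hybridised on slide 1, and replicates 2 and 3 on slide 2. The first principal component carried 52.8% of the variance and separated the slides, so every comparison was fitted with slide as a block and again on the 8 arrays of slide 2 alone. The 75th percentile of the processed signal was 1283 to 1958 on slide 1 and 3639 to 4243 on slide 2. Between 69.2% and 83.4% of spots were well above background, except on the array labelled wild-type liver replicate 1, where 49.0% were. Hepatocyte transcripts such as Alb and Ttr averaged log2 levels of 5.03 to 5.55 over the 12 arrays. They were 5.25, 5.13 and 5.21 in survivin-deleted liver, against 5.55, 5.40 and 5.49 in wild-type liver, without overlap, and their part in the liver results was not tested. Birc5, the deleted gene, has probes at chr11:117711112-117711171 and chr11:117714057-117714116 (mm9) beside the one used. As labelled, their means differed by -1.79 and -1.08 in HCC and by -1.22 and -0.96 in liver. The HCC groups overlapped at the second, and the liver groups at both. The probe used lies at chr11:117716978-117717037. By exact permutation, p was 0.1 in HCC for a difference of -1.08, and 0.5 in liver for -0.94. The smallest p possible is 0.1. By that probe the levels were -0.09, 0.05 and -0.21 in survivin-deleted HCC, against 0.64, 0.70 and 1.63 in wild-type HCC. In liver they were 2.29, -0.21 and -1.19 in survivin-deleted tissue, against 2.67, 0.40 and 0.63 in wild-type tissue. The array labelled survivin-deleted liver replicate 1 thus had 1 of the highest Birc5 levels. On slide 1 it lay below wild-type liver, 2.29 against 2.67, and above wild-type HCC, at 0.64. This level alone therefore does not show whether its label is right. In the authors' deposited value table, the columns of the arrays labelled survivin-deleted liver 1 and wild-type HCC 1 each match the scanner file of the other. Both are on slide 1, and results are given as labelled, with these 2 arrays exchanged, and on slide 2, which holds neither. With the 2 exchanged, Birc5 by the probe used differed by -1.62 in HCC and by -1.49 in liver, where the groups still overlapped. Its other probes then differed by -2.37 and -1.52 in HCC and by -1.80 and -1.39 in liver, without overlap. XIST is an RNA made from the silenced X in female cells, and it was looked at after its value was seen, since it was the only gene past the adjusted threshold on slide 2. By the probe that stands for it, the levels were -5.04, -6.30 and -6.45 in survivin-deleted HCC, against -4.28, -2.001 and -2.25 in wild-type HCC. In liver they were -2.45, -6.07 and -6.21 in survivin-deleted tissue, against -1.95, -1.42 and -1.995 in wild-type tissue. The Y-linked transcripts Ddx3y and Eif2s3y were well above background on all 12 arrays, whereas Kdm5d was on 0 and the probes of Uty on 10 and 4. Ddx3y was uneven on slide 2, with -5.12 in wild-type HCC replicate 3 and -1.20 in wild-type liver replicate 3. Another entry of the gene, Xist, did not separate the livers of slide 2 by its probe of highest mean. It had -3.78 and -5.44 in deleted liver, against -5.72 and -3.22 in wild-type liver. Its other probe did, with -5.93 and -7.73 against -2.67 and -3.62. By the XIST entry, every wild-type array of slide 2 carried a female-cell transcript beside Y-linked ones, which goes against male tissue alone. There a difference between genotypes and one in female cells, of tissue or marrow, cannot be told apart. With so few arrays every estimate is imprecise.

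With survivin deleted, 36 of the 46 members tested were lower in HCC and 43 of 46 were lower in liver when all arrays were fitted with slide as a block. Over all genes tested, 52.4% were lower in HCC and 42.7% in liver. The median log2 difference of the members was -0.24 in HCC, where the median over all genes was -0.02, and -0.54 in liver, where it was 0.07. None of the 46 members passed the adjusted threshold of 0.05 in either tissue (limma, Benjamini-Hochberg), and 0 of all genes tested did. At an unadjusted p under 0.05, 2 members were lower in HCC, where 4.43% of all genes were. In liver 4 members were lower at that threshold, where 2.98% of all genes were, and 1, Cdk1, was higher, where 9% were. The smallest adjusted p of any member was 0.618 in HCC, for Cenpa. In liver it was 0.415, which Cdc20, Cdk1, Cenpa, Spc25 and Nusap1 shared, and the smallest unadjusted p was that of Cdk1. Single arrays shifted these medians. Without wild-type HCC replicate 3 the HCC median was 0.0225, without wild-type HCC replicate 1 it was -0.79, and without survivin-deleted liver replicate 1 the liver median was -0.997.

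On slide 2 alone the members stood further from the other genes. In HCC 42 of 46 were lower with the deletion, against 45.4% of all genes, with a median log2 difference of -0.65 where all genes had 0.04. An unadjusted p under 0.05 was reached by 29 members in the lower direction (8.92% of all genes) and by none in the higher (10.1%). In liver 43 of 46 were lower, against 46.1% of all genes, with a median of -0.82 where all genes had 0.03, and 31 members reached that p in the lower direction (5.97% of all genes). The smallest adjusted p of a member was 0.0817 in HCC, for Cenpa, and 0.230 in liver, which Cenpa shared with Top2a (limma). No member passed there either, and 0.00377% of all genes, which is 1 gene, passed in each tissue. Both arrays of the deleted group lay below both arrays of the wild type for 39 members in HCC (22.1% of all genes) and for 42 members in liver (23.3%). These tissues share no arrays, and 38 members were separated downward in both, against 12.2% of all genes. All these arrays are on 1 slide, and tumour and liver of the same number may be of the same animal. The tissues are therefore not known to be independent.

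**Figure D1:**
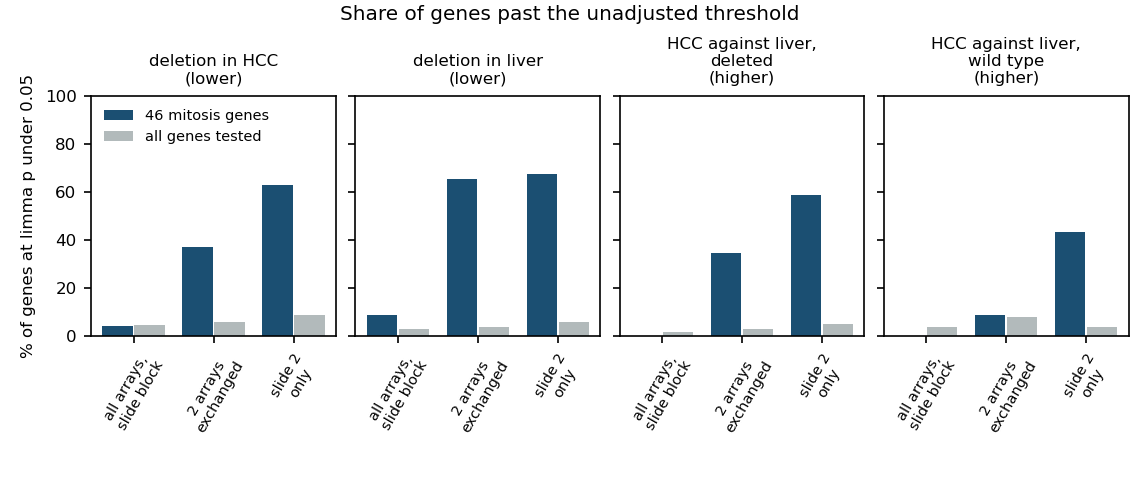
Share of the 46 mitosis genes (dark bars) and of all genes tested (grey bars) with an unadjusted limma p under 0.05 in the direction named above each panel, for the fit over all arrays with slide as a block, the same fit with 2 arrays exchanged, and slide 2 alone. In the deletion panels 2 and 4 of the 46 genes pass in the first fit and 29 and 31 on slide 2.

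Slide 1, with 1 array a group, gave another picture. Under its labels 40 of 46 members were higher in the survivin-deleted tumour, where 35.8% of all genes were. Their median log2 difference was 0.25 where all genes had -0.18. In liver 20 of 45 were higher and 25 lower, where 55.8% and 44.2% of all genes were. The median there was -0.05 where all genes had 0.12. Only 10 of 46 members had the same sign on both slides in HCC, and 28 of 45 in liver. With the 2 arrays exchanged, 35 of 46 members were lower in the deleted tumour on slide 1, with a median of -0.24 that was also the median of all genes, of which 65.2% were lower. In deleted liver 43 of 45 were lower, with a median of -0.66 where all genes had 0.11 and 43.0% were lower. Over all arrays with the 2 exchanged and slide as a block, the medians were -0.45 in HCC and -0.79 in liver, and 17 and 30 members reached an unadjusted p under 0.05 in the lower direction (5.65% and 3.74% of all genes). Neither a member nor any other gene, 0%, passed the adjusted threshold in that fit, where the smallest adjusted p in HCC was 0.405. Which arrays the labels describe was not tested further.

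**Figure D2:**
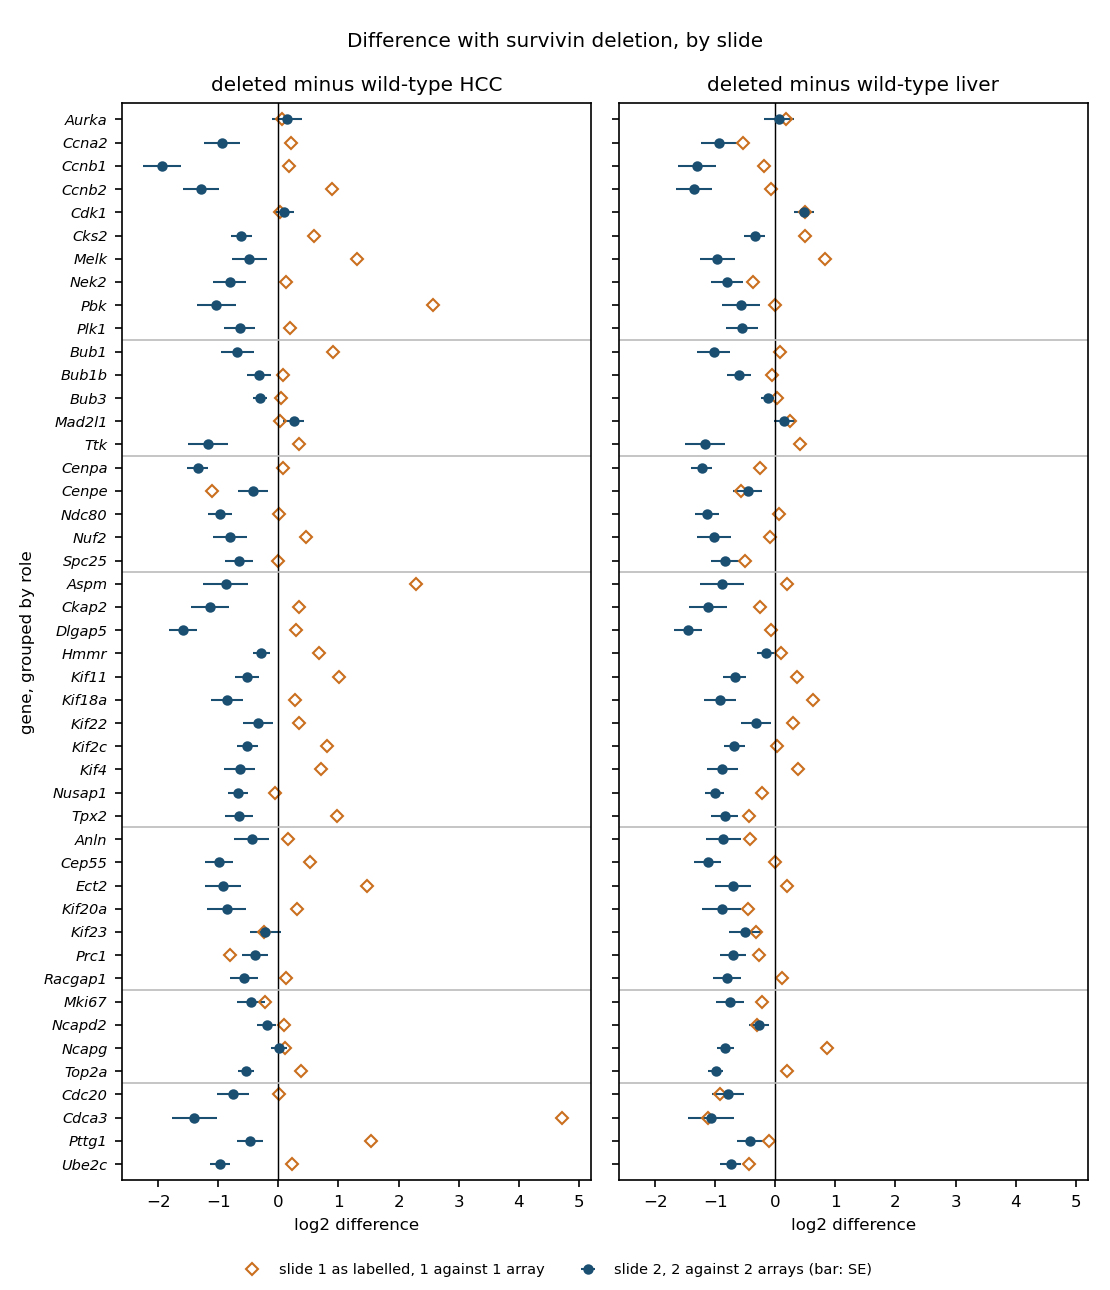
Log2 difference of each of 46 mitosis genes between survivin-deleted and wild-type tissue, in HCC (left) and liver (right), with genes grouped by role down the page. Filled circles are slide 2 with the standard error as bars and open diamonds are the single difference on slide 1 as labelled. The circles lie left of 0 for 42 genes in HCC and 43 in liver, and the diamonds lie right of 0 for 40 genes in HCC.

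Among the kinases and cyclins that start mitosis, cyclin B1 differed most in HCC. Ccnb1 encodes the B-type cyclin that activates Cdk1, and its probe lies at chr13:101553449-101553508 (mm9). Its log2 levels were 0.31, -2.74 and -2.26 in survivin-deleted HCC, against 0.12, -0.999 and -0.12 in wild-type HCC (replicates 1 to 3, as for every gene that follows). Replicates 2 and 3 of the deleted tumours lay below all wild-type tumours, whereas the slide 1 arrays of both genotypes were close. The difference was -1.23 (SE 0.55, limma adjusted p = 0.631) with slide as a block and -1.94 (SE 0.32, limma adjusted p = 0.106) on slide 2, which is 3.84-fold lower. Its 3 probes ran from -1.23 to 0.46 with slide as a block and from -1.94 to -0.99 on slide 2, so the sign depends on the probe in the first fit. Of the 11 members with several probes tested, all probes had 1 sign for 6 in HCC and 8 in liver with slide as a block, and for 8 in each on slide 2. In liver Ccnb1 had 0.98, -3.03 and -2.78 in survivin-deleted liver, against 1.16, -1.63 and -1.57 in wild-type liver. The same split by slide appeared, and on slide 2 the difference was -1.31 (SE 0.32). Cyclin B2 (Ccnb2) differed by -1.29 in HCC and -1.35 in liver on slide 2, and cyclin A2 (Ccna2), needed for S phase and mitotic entry, by -0.95 and -0.94.

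Cdk1 differed most in the higher direction in liver, where Mad2l1 and Aurka were the other members above 0 with slide as a block. The probe of highest mean, at chr10:68799513-68799572 (mm9), gave log2 levels of -2.63, -2.39 and -2.76 in survivin-deleted liver, against -3.12, -3.12 and -2.98 in wild-type liver. All 3 deleted livers were above all 3 wild-type livers, and the difference was 0.48 (SE 0.18, limma adjusted p = 0.415) with slide as a block and 0.48 (SE 0.17) on slide 2. In HCC it gave -3.03, -2.54 and -2.47 in survivin-deleted HCC, against -3.05, -2.69 and -2.51 in wild-type HCC, with overlapping groups. The other Cdk1 probes, at chr10:68801053-68801112 and chr10:68801072-68801131, gave the opposite order in liver on slide 2. The first of them had -2.88 and -2.55 in survivin-deleted liver replicates 2 and 3, against -2.004 and -1.21 in the wild-type ones, so the direction for Cdk1 depends on the probe. Aurka, the Aurora kinase of the centrosomes, differed by 0.14 in HCC and 0.06 in liver on slide 2, within its standard error of 0.25. Cks2, a small Cdk-binding protein and the member of highest level in this role, had 1.26, 0.28 and 0.75 in survivin-deleted HCC, against 0.67, 1.06 and 1.19 in wild-type HCC. On slide 2 its tumour groups did not overlap and differed by -0.62 (SE 0.18). Melk, a kinase of proliferating cells, differed by -0.96 (SE 0.29) in liver, and the polo-like kinase Plk1 by -0.65 (SE 0.26) in HCC. The Plk1 spot was an outlier on the array labelled wild-type liver replicate 1, and the fit had no value for it there.

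**Figure D3:**
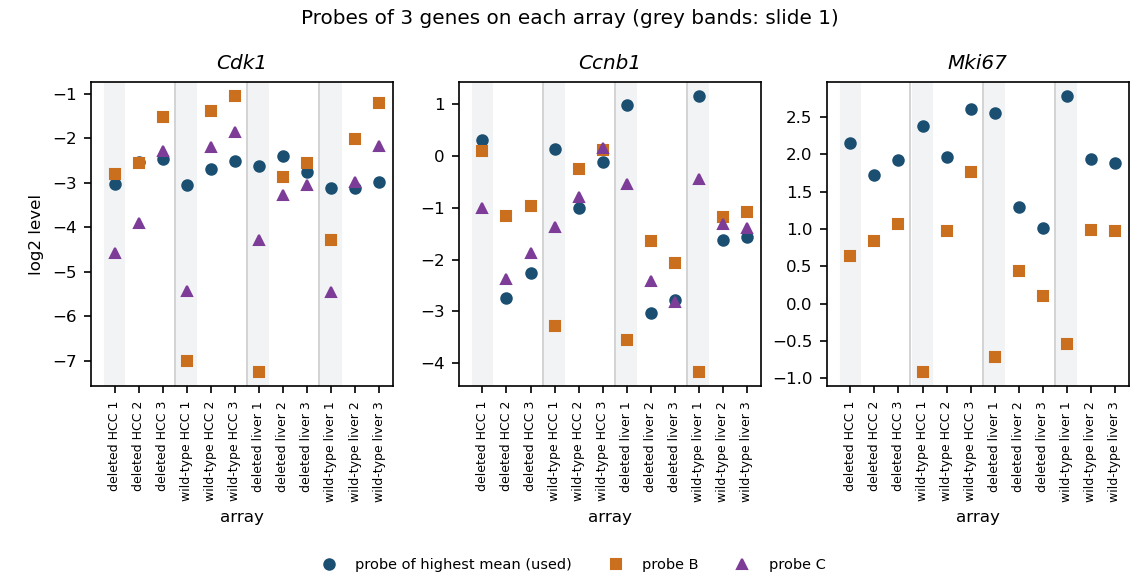
Log2 levels on each of the 12 arrays for every probe of Cdk1, Ccnb1 and Mki67, with slide 1 arrays on grey bands and the probe that stands for the gene as dark circles. On slide 2 the Cdk1 probes B and C are higher in wild-type than in deleted liver while the dark circles are lower, and on slide 1 the probes of a gene lie up to several log2 units apart.

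The centromere and kinetochore genes had the lowest median of the roles in HCC with slide as a block, -0.64 over 5 genes, and -0.73 in liver. Cenpa, the histone H3 variant that marks the centromere, has its probe at chr5:30974916-30975386 (mm9). Its log2 levels were 0.14, -1.30 and -1.17 in survivin-deleted HCC, against 0.07, -0.09 and 0.31 in wild-type HCC. On slide 2 the deleted tumours were lowest by a wide gap, and the slide 1 arrays were level. The difference was -0.87 (SE 0.34, limma adjusted p = 0.618) with slide as a block and -1.34 (SE 0.17, limma adjusted p = 0.0817) on slide 2, 2.54-fold lower. In liver Cenpa had 0.14, -1.83 and -1.72 in survivin-deleted liver, against 0.39, -0.50 and -0.59 in wild-type liver. Again replicates 2 and 3 of the deleted group stood lowest, and the difference was -0.90 (SE 0.34, limma adjusted p = 0.415) with slide as a block and -1.23 (SE 0.17, limma adjusted p = 0.230) on slide 2.

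Spc25 is a subunit of the Ndc80 complex, which holds the microtubule end, and it had 0.25, -0.77 and -0.46 in survivin-deleted liver, against 0.76, -0.03 and 0.47 in wild-type liver. The liver groups overlapped through slide 1 only, and the difference was -0.73 (SE 0.29, limma adjusted p = 0.415) with slide as a block. In HCC its slide 2 difference was -0.66 (SE 0.23). Ndc80 itself differed by -0.97 (SE 0.20) in HCC and -1.13 (SE 0.20) in liver on slide 2, and Nuf2, its partner subunit, by -0.80 and -1.02. Cenpe, a kinesin at the kinetochore, had -0.73, -1.34 and -1.34 in survivin-deleted HCC, against 0.37, -1.26 and -0.59 in wild-type HCC. It was among the few members lower in the deleted tumour on slide 1 as labelled, and with slide as a block the difference was -0.65 (SE 0.39, limma adjusted p = 0.705).

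Dlgap5 stood out among the spindle motors and microtubule proteins. It bundles microtubules near the chromosomes and had -2.98, -3.83 and -3.92 in survivin-deleted HCC, against -3.27, -2.63 and -1.95 in wild-type HCC. Replicates 2 and 3 of the deleted tumours were the lowest of the 6. The difference was -0.96 (SE 0.47, limma adjusted p = 0.652) with slide as a block and -1.58 (SE 0.23, limma adjusted p = 0.0910) on slide 2. In liver its slide 2 difference was -1.45 (SE 0.23), 2.74-fold lower. Nusap1, which links microtubules to chromosomes, had -0.54, -2.15 and -2.04 in survivin-deleted liver, against -0.31, -1.19 and -0.97 in wild-type liver. Its deleted livers on slide 2 were about 1 log2 unit below the wild type, and the difference was -0.75 (SE 0.31, limma adjusted p = 0.415) with slide as a block. In HCC all 3 deleted tumours had a lower Nusap1 level than all 3 wild-type tumours, -0.92, -1.51 and -1.20 in survivin-deleted HCC, against -0.86, -0.76 and -0.60 in wild-type HCC. Ckap2, a microtubule-stabilising protein, differed by -1.14 in HCC and -1.12 in liver on slide 2. Tpx2, the activator of Aurora A, differed by -0.65 and -0.84, and the kinesin Kif4 by -0.64 and -0.88. Hmmr, the member of highest level in this role, differed least among these, by -0.28 and -0.16. Of 11 genes in the role, 8 in HCC and 8 in liver were lower at an unadjusted p under 0.05 on slide 2, where 8.92% and 5.97% of all genes were.

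The spindle checkpoint genes differed among themselves in size and sign. Mad2l1, the inhibitor of Cdc20, differed by 0.26 (SE 0.18) in HCC and 0.15 (SE 0.18) in liver on slide 2, in the higher direction in both by the probe of highest mean. Its 3 probes ran from -1.48 to 0.26 in HCC and from -1.10 to 0.15 in liver, so the direction depends on the probe, as it does for Cdk1. Bub3, the member of highest level in this role, had 1.33, 1.59 and 1.64 in survivin-deleted HCC, against 1.30, 1.87 and 1.98 in wild-type HCC. On slide 2 it differed by -0.31 (SE 0.12) in HCC and -0.13 (SE 0.12) in liver. The checkpoint kinases Ttk and Bub1 were further apart, with Ttk differing by -1.17 (SE 0.33) in HCC and -1.17 (SE 0.33) in liver. Bub1 had -2.21, -2.84 and -3.35 in survivin-deleted liver, against -2.29, -2.18 and -1.95 in wild-type liver, and its slide 2 difference in liver was -1.03 (SE 0.28).

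For the central spindle and cytokinesis the medians on slide 2 were -0.57 in HCC and -0.81 in liver over 7 genes. Cep55, which recruits the abscission machinery, differed by -0.99 (SE 0.23) and -1.13 (SE 0.23), but its other probe by 0.12 and 0.16. Racgap1, a subunit of centralspindlin, differed by -0.57 and -0.81, and the other subunit, Kif23, by -0.21 (SE 0.26) and -0.51 (SE 0.26). Prc1 bundles the midzone microtubules and is the member of highest level in this role. It had 2.002, -1.50 and -1.60 in survivin-deleted liver, against 2.28, -1.04 and -0.65 in wild-type liver, so the slide 1 array lay far above those of slide 2 in both genotypes. Anln, a scaffold of the contractile ring, had -1.01, -2.78 and -2.46 in survivin-deleted liver, against -0.59, -1.90 and -1.61 in wild-type liver, and its slide 2 difference in liver was -0.86 (SE 0.29).

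Chromosome structure genes differed more in liver than in HCC on slide 2, with medians of -0.79 and -0.33. Top2a, the topoisomerase that untangles sister chromatids, had -0.26, -2.02 and -2.23 in survivin-deleted liver, against -0.44, -1.16 and -1.10 in wild-type liver. The slide 2 groups were well apart, and the difference was -0.99 (SE 0.13, limma adjusted p = 0.230), the smallest unadjusted p of the members in that comparison. In HCC it was -0.54 (SE 0.13). Ncapg had -3.10, -4.83 and -4.89 in survivin-deleted liver, against -3.96, -3.93 and -4.12 in wild-type liver, and differed by -0.83 (SE 0.14) in liver but 0.01 (SE 0.14) in HCC on slide 2. Mki67, which coats mitotic chromosomes and encodes the Ki-67 antigen, had 2.56, 1.29 and 1.01 in survivin-deleted liver, against 2.79, 1.93 and 1.88 in wild-type liver. Its slide 2 difference in liver was -0.76 (SE 0.23), and in HCC it was -0.46 (SE 0.23).

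Of the exit genes, Cdc20, probed at chr4:118105534-118105593 (mm9), had 1.20, -0.95 and -0.90 in survivin-deleted liver, against 2.11, -0.17 and -0.09 in wild-type liver. In each replicate number the deleted liver was below the wild-type liver of the same slide, and the difference was -0.83 (SE 0.32, limma adjusted p = 0.415) with slide as a block. In HCC it had 1.34, -0.32 and -0.02 in survivin-deleted HCC, against 1.34, 0.20 and 0.97 in wild-type HCC, level on slide 1 and apart on slide 2, where the difference was -0.76 (SE 0.26). Ube2c had 1.39, -0.07 and 0.22 in survivin-deleted HCC, against 1.17, 0.94 and 1.16 in wild-type HCC, and its slide 2 difference was -0.97 (SE 0.17), 1.96-fold lower. Cdca3, part of the complex that degrades the mitosis inhibitor Wee1, had -0.49, -1.97 and -1.51 in survivin-deleted HCC, against -5.20, -0.91 and 0.23 in wild-type HCC. The lone value of -5.20, on the array labelled wild-type HCC replicate 1, was not well above background, and the slide-blocked difference of 0.64 has the opposite sign to the slide 2 difference of -1.40 (SE 0.38). Pttg1, the securin that holds separase inactive, differed by -0.47 in HCC and -0.42 in liver on slide 2.

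**Figure D4:**
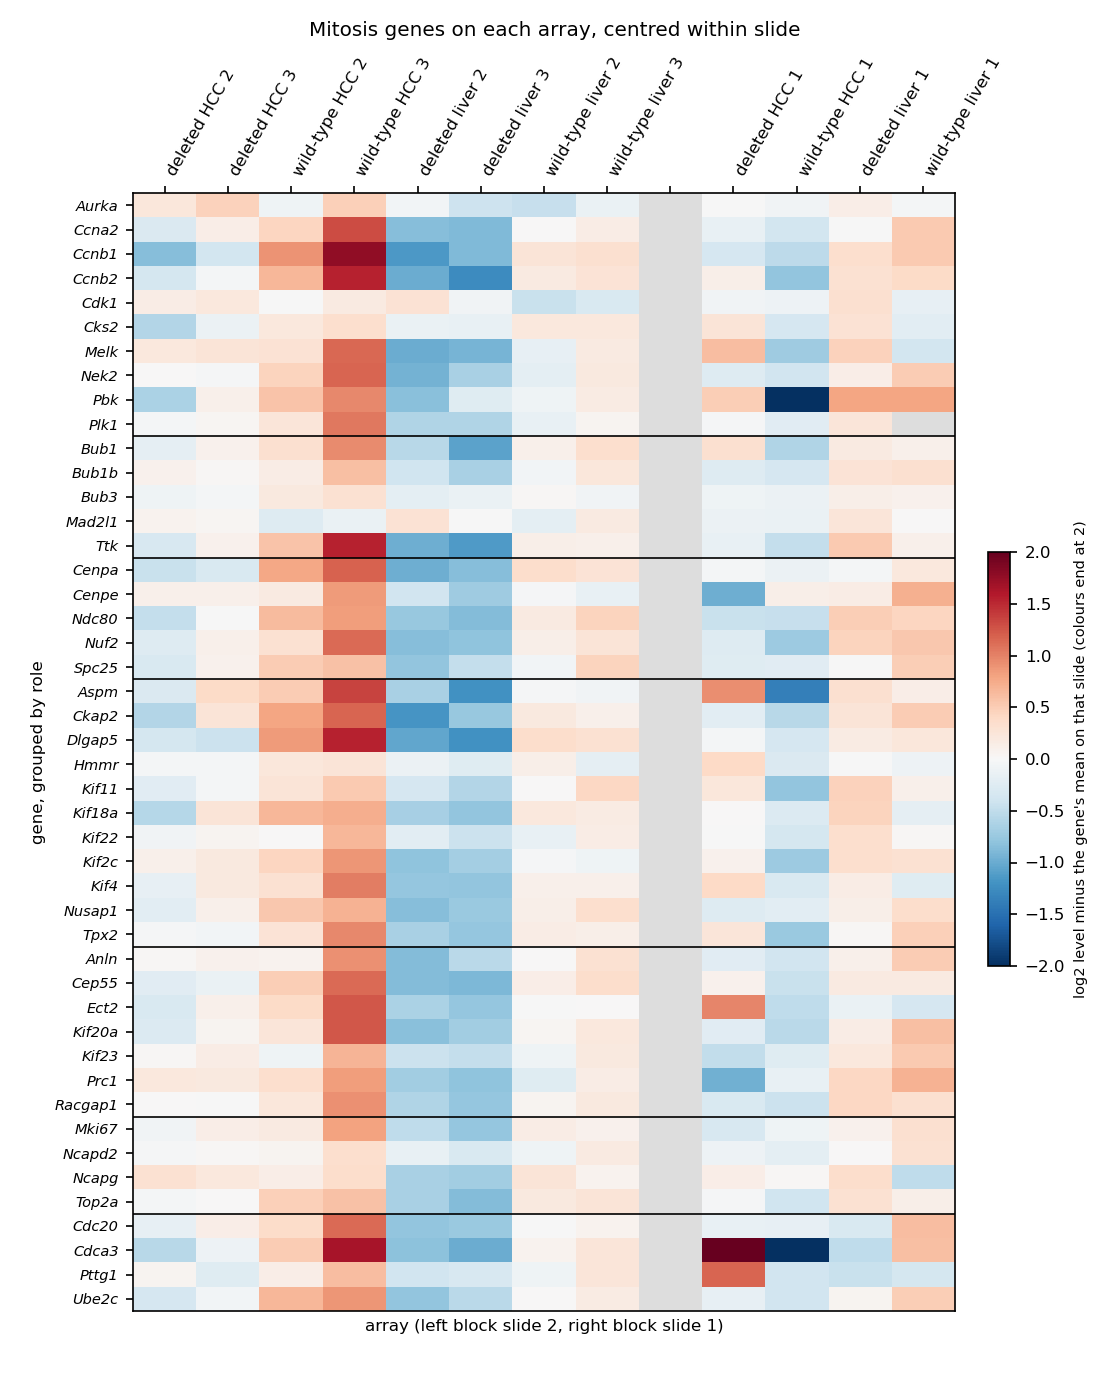
Log2 level of 46 mitosis genes (down the page, grouped by role) on each of the 12 arrays, minus the gene's mean over the arrays of the same slide, with slide 2 in the left block, slide 1 in the right and grey for the Plk1 spot left out as an outlier. On slide 2 the wild-type HCC replicate 3 array is the highest for 44 genes, and the survivin-deleted liver arrays are the lowest for 42.

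HCC was then set against non-cancerous liver within each genotype, using the same arrays as the deletion comparisons. With survivin deleted, 42 of 46 members were higher in HCC with slide as a block, against 42.9% of all genes, with a median log2 difference of 0.33 where all genes had -0.05. In wild type 33 of 46 were higher, against 56.6% of all genes, with a median of 0.14 where all genes had 0.05, and of -0.17 without wild-type HCC replicate 3. No member passed the adjusted threshold in either genotype (limma, smallest adjusted p 0.898 and 0.750), nor did any other gene tested. None reached an unadjusted p under 0.05 either, where 1.63% and 3.7% of all genes did in the higher direction. On slide 2, 44 of 46 members were higher in deleted HCC than in deleted liver (51.7% of all genes) and 45 of 46 were higher in wild-type HCC than in wild-type liver (51%). The medians were 0.65 and 0.52, and 27 members in deleted tissue and 20 in wild-type tissue reached an unadjusted p under 0.05 in the higher direction (5.1% and 3.81% of all genes). The arrays were separated upward for 42 members in deleted tissue (22% of all genes), for 35 in wild-type tissue (22.3%), and for 33 in both, against 7.98% of all genes. With the 2 arrays exchanged and slide as a block, 16 members in deleted tissue (2.82% of all genes) and 4 in wild-type tissue (7.79%) reached that p. Slide 1 as labelled went the other way, with 35 of 46 members lower in the deleted tumour, where 65.2% of all genes were and the medians were both -0.24, and 43 of 45 lower in the wild-type tumour, where 43.0% of all genes were.

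By gene, the tumour and liver levels differed most on slide 2 for Melk and Aspm, a spindle pole protein, in deleted tissue, by 1.20 (SE 0.29) and 0.98 (SE 0.37), with Prc1 next at 0.95 (SE 0.22). Ncapg and Top2a had the smallest unadjusted p there, with differences of 0.93 (SE 0.14, limma adjusted p = 0.394) and 0.75 (SE 0.13) (limma). In wild-type tissue Ccnb1 differed by 1.04 (SE 0.32) and Kif2c, a microtubule-depolymerising kinesin, by 0.72 (SE 0.17, limma adjusted p = 0.465). Ube2c differed by 0.69 (SE 0.17) and Cenpa by 0.66 (SE 0.17) in wild-type tissue. Mad2l1 had -0.08 in deleted and -0.19 in wild-type tissue, although its probes reached up to 0.46 and 0.95, and Cks2 had -0.21 in deleted tissue. With slide as a block the smallest unadjusted p in deleted tissue was that of Pttg1, whose difference was 0.70 (SE 0.37, limma adjusted p = 0.898), followed by Ncapg, Melk, Ect2 and Kif4. Ect2 activates RhoA at the cleavage furrow and differed by 0.76 (SE 0.45, limma adjusted p = 0.898) in deleted and 0.48 (SE 0.45, limma adjusted p = 0.815) in wild-type tissue. In wild type with slide as a block, Cdk1 had the smallest, with 0.32 (SE 0.18, limma adjusted p = 0.750), and Aurka followed with 0.32 (SE 0.24, limma adjusted p = 0.771).

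Each member was also tested for a change with deletion that differs between the tissues (HCC minus liver). It was above 0 for 36 of 46 with slide as a block (41.6% of all genes), with a median of 0.23 where all genes had -0.08, and for 28 of 46 on slide 2 (50.8%), with a median of 0.06. Without wild-type HCC replicate 1 the slide-blocked median was -0.28. None passed the adjusted threshold (limma, smallest adjusted p 0.911), and at an unadjusted p under 0.05 there were 0 with slide as a block (3.36% of all genes) and 2 on slide 2 (3.75%). Those 2 were Ncapg, 0.84 (SE 0.20, limma adjusted p = 0.999), and Top2a, 0.45 (SE 0.18), both named after their values were seen. Cdk1 had -0.41 (SE 0.25, limma adjusted p = 0.911) with slide as a block, the smallest unadjusted p of that fit.

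Across the 4 groups on slide 2, 34 of the 46 members had the same order of group means, with wild-type HCC highest, then wild-type liver, then survivin-deleted HCC, and survivin-deleted liver lowest. In a further 7 deleted HCC stood above wild-type liver and the ends of the order were the same. Wild-type HCC had the highest group mean for 42 members, where it did for 24.7% of all genes, and deleted liver had the lowest for 42, where it did for 22.4%. A single array, wild-type HCC replicate 3, was the highest of the 8 for 44 members, and the survivin-deleted livers, replicates 2 and 3, were lowest for 16 and 26. On slide 1 as labelled the highest array was wild-type liver for 23 of 45 members and the one labelled survivin-deleted liver for 14, and the lowest was the one labelled wild-type HCC for 35.

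The mean log2 level over 45 members measured on every array was -0.89, -1.62 and -1.40 in survivin-deleted HCC, against -1.40, -1.10 and -0.57 in wild-type HCC. In liver it was -0.74, -2.08 and -2.13 in survivin-deleted tissue, against -0.70, -1.42 and -1.29 in wild-type tissue. The groups overlapped in both tissues through their slide 1 arrays and did not overlap on slide 2. In whole tissue, fewer dividing cells and less RNA per dividing cell cannot be told apart.

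**Figure D5:**
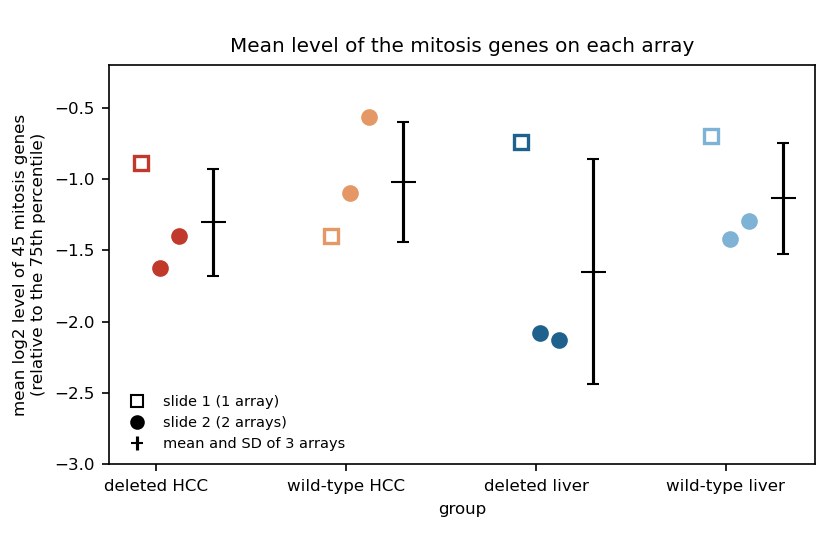
Mean log2 level of 45 mitosis genes on each array, by group, with the slide 1 array as an open square, the slide 2 arrays as filled circles and the mean with SD of 3 arrays in black. On slide 2 deleted HCC lies below wild-type HCC and deleted liver below wild-type liver, while the open squares lie between -1.40 (labelled wild-type HCC) and -0.70 (wild-type liver).

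The levels of most members were correlated over the arrays. After each gene was centred within slide, each member was correlated with the mean over the members, itself included, which raises its correlation. The median was 0.905 over 12 arrays, where all genes had a median of -0.06, and 42 of 45 members were over 0.5. The arrays share their groups and slides, so this is a description. Mad2l1 (-0.31), Cdk1 (0.01) and Pttg1 (0.48) were the 3 members below 0.5. Outside the members, the named genes of closest pattern were Cdkn3, a phosphatase that acts on Cdk1 (r = 0.965), Zwilch, a kinetochore protein (0.955), and Nsdhl (0.956) and Fdps (0.946), enzymes of cholesterol synthesis, over the same 12 arrays.

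Other genes of the same pathways were read from lists that leave out the members. Of 33 further kinetochore and centromere genes tested, 7 in HCC and 4 in liver were lower with the deletion at an unadjusted p under 0.05 with slide as a block, against 4.43% and 2.98% of all genes. Cenpn, a centromere protein that binds the Cenpa nucleosome, differed by -1.04 (SE 0.27) in HCC and -0.76 (SE 0.27) in liver. Spc24, the partner of Spc25, differed by -1.19 (SE 0.40) in HCC, and Ska1, which tracks microtubule ends, by -1.11 (SE 0.45) in liver. On slide 2 the lower counts in this list were 15 and 17, where 8.92% and 5.97% of all genes were lower at that p, with medians of -0.40 and -0.50. Of the 5 chromosomal passenger genes tested, Birc5 among them, 0 reached that p in either tissue with slide as a block, and 2 in HCC and 4 in liver were lower at it on slide 2. Aurkb, its kinase, differed by -0.43 in HCC and -1.03 in liver on slide 2, and Incenp, its scaffold, by 0.44 and -0.03. With slide as a block Aurkb had the opposite sign in HCC, 1.22 (SE 0.80), and -1.51 (SE 0.80) in liver, and the difference between the tissues was 2.72 (SE 1.13, limma adjusted p = 0.911). The other lists stood nearer to all genes, with slide 2 medians of -0.33 in HCC and -0.27 in liver for 26 other spindle motors and spindle proteins, -0.29 and -0.30 for 18 genes of condensin, cohesin and separase, -0.08 and -0.05 for 14 of the anaphase-promoting complex, -0.08 and -0.03 for 29 of entry control and transcription, and -0.07 and -0.15 for 16 of cytokinesis. No gene of these lists passed the adjusted threshold (limma).

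Markers of blood cells also differed in these comparisons. T and NK cell transcripts, of which 8 of 10 listed were tested (Trbc1 is not a gene name of the array and Klrb1c did not pass the filter), averaged -1.34, 0.21 and -0.83 in survivin-deleted HCC, against -1.47, -1.68 and -2.46 in wild-type HCC. On slide 2, 7 of the 8 were higher in deleted HCC at an unadjusted p under 0.05, where 10.1% of all genes were, and 1, Cd4, was lower, with a median of 1.92. In liver their median was -0.03, and none reached that p. B and plasma cell transcripts, all 8 tested, ran from -2.40 to -2.20 in deleted HCC and from -3.74 to -2.01 in wild-type HCC, with 5 of 8 higher on slide 2 at that p and, in liver, 4 of 8 higher (5.72% of all genes) and 1 lower. The 3 precursor B cell genes tested averaged -2.19, -3.35 and -3.15 in deleted HCC, against -1.79, -1.85 and -2.21 in wild-type HCC. On slide 2 this gap came mainly from Dntt, at -2.68 and -2.53 in deleted HCC, against 1.31 and 1.12 in wild-type HCC. Vpreb1 differed little there (-3.97 and -4.22, against -3.68 and -3.60), and Vpreb3 overlapped (-3.40 and -2.71, against -3.19 and -4.16). Igll1, Rag1 and Rag2, also listed, did not pass the filter. Erythroid genes averaged 0.88, 0.45 and 1.63 in deleted liver, against 0.99, 2.04 and 1.76 in wild-type liver. On slide 2, 7 of 8 were lower, where 46.1% of all genes were, although replicate 3 of deleted liver, at 1.63, lay near the wild-type 1.76. Macrophage and Kupffer cell genes averaged 2.86, 0.98 and 1.23 in wild-type HCC, against 3.23, 2.25 and 2.39 in wild-type liver, and 5 of 7 were lower on slide 2 at that p (3.88% of all genes). All 10 neutrophil and granulocyte precursor genes were lower in wild-type HCC than in wild-type liver on slide 2, where 49% of all genes were. Their median difference was -1.01, with means of 0.08 and 1.22 in HCC, against 1.58 and 1.92 in liver. On slide 1 as labelled the means were level, 1.92 in wild-type HCC and 1.95 in wild-type liver. The part of these blood cell markers in the levels of the mitosis genes was not tested.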

How the data were processed

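The 12 scanner files hold 62976 spots each, 59305 of them not controls, for 55681 probes. The processed spot intensity is the authors', produced by Agilent Feature Extraction (10.7 in the submitters' processing notes), and per the file headers it was detrended, with surrogates for dim spots and probe positions on mm9. The authors' deposited table of log2 values, with the 75th percentile of each array at 0, served as an alternative. Its columns for 2 arrays, those labelled survivin-deleted liver 1 and wild-type HCC 1, each fit the scanner file of the other array (r = 0.964 and 0.970 with their own, 1.00 with the other).

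Here log2 intensity minus the 75th percentile of each array's non-control spots was used. Outlier spots were left out, which removed every spot of 636 probes on some array. Probes were kept where some group had all 3 arrays well above background (39156), and of a gene's probes the one with the highest mean was used. The limma model (limma 3.58.1, R 4.3.3) had 4 group means and slide as a block, with 7 residual degrees of freedom, or 4 on slide 2, and Benjamini-Hochberg adjustment over all genes in each of 5 contrasts. Birc5 was also compared by exact permutation. The fit was tested on simulated data.

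Replicate numbers pair arrays through the slide: all 18 correlations between deviations of same-numbered arrays were over 0.1 (0.279 to 0.737), and within slide 2, 4 of 12 were. The members and lists were chosen with earlier results of these data known. Named members are the 6 of smallest unadjusted p in each contrast with slide as a block, plus the member of highest mean in each role, and further members are given for their role. Alternatives were the block, the normalization, the filter, the rule for probes, the samples in the fit and leaving out each array. Promoters are RefSeq's on GRCm38.p6.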

Additional observations from a re-analysis of the deposited data

How the results depend on the processing

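No member passed the adjusted threshold in any fit tried. Genes other than members that passed were 1 in each deletion comparison on slide 2, the female-cell transcript XIST (log2 difference -4.25 in HCC and -4.43 in liver), and 2 in HCC without the 2 arrays in doubt, Cyp3a41b and Dntt. All 3 were picked for naming after the fit. Leaving out 1 array gave 0 to 2 genes for each deletion comparison, 0 to 1 for HCC against liver with survivin deleted, and 0 for the wild type and for the difference between tissues.

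The member medians kept their sign under every alternative other than leaving out an array. Without 1 array they ran from -0.79 to 0.0225 for deletion in HCC, -0.997 to -0.32 in liver, 0.16 to 0.74 for HCC against liver with survivin deleted, -0.17 to 0.55 in wild type, and -0.28 to 0.60 for the difference. The sign turned without wild-type HCC replicate 3 for deletion in HCC and for wild-type HCC against liver, and without wild-type HCC replicate 1 in the last. Members at an unadjusted p under 0.05 numbered 0 to 20 (20 without wild-type HCC replicate 1), 0 to 29 (29 without survivin-deleted liver replicate 1, 0 without its replicate 2), 0 to 14 (14 without survivin-deleted liver replicate 1), 0 to 16 (16 without wild-type HCC replicate 1) and 0 to 2. The share of all genes at that p also moved with the arrays fitted. For deletion in HCC it was 7.92% with slide as a block and 19% on slide 2, so these counts cannot be read alone. The Birc5 difference ran from -1.82 to -0.53 in HCC and from -1.75 to -0.35 in liver.

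With the replicate number as a block in place of slide, the medians were unchanged and 1, 5, 0, 0 and 0 members reached that p, with 0 genes past the adjusted threshold. In the same order the counts were 2, 5, 0, 0 and 0 with slide as a block (7.92%, 12%, 4.46%, 6.04% and 3.36% of all genes). They were 0 throughout with no block (1.86%, 3.22%, 0.871%, 1.73% and 0.6%), and 15, 32, 16, 4 and 0 in the deposited log2 table. Without the 2 arrays in doubt they were 22, 29, 19, 15 and 1 (12.1%, 7.63%, 6.74%, 6.41% and 2.03% of all genes). When only the groups compared entered the fit they were 1, 22, 7 and 0. Counts given without a share of all genes are no result about the members. The difference between tissues in the change with deletion was -0.33 for Cdca3 and -0.0497 for Pttg1 on slide 2, against 1.72 and 0.51 with slide as a block. Leaving out 1 array turned Kif4 in wild type (-0.008 to 0.79, without wild-type HCC replicate 3) and the differences between tissues for Pttg1 (-0.0478 to 0.82, without survivin-deleted HCC replicate 1), Bub1 (-0.0425 to 0.95) and Tpx2 (-0.002 to 1.0226), both without wild-type HCC replicate 1. The cause of these changes was not tested. Moderation with a trend leaves medians as they are and was not run for them. Dim probes limit 7 members: Aspm, Cdca3 and Pbk were above background on 2 of 3 wild-type HCC arrays, and Aspm, Kif18a, Kif4, Melk and Ncapg on 2 of 3 wild-type liver arrays.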
